A study of Homo sapiens with 8 samples.

Results

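The genes described here are 10 ligands of acute inflammation: the CXC chemokines CXCL1, CXCL2, CXCL3, CXCL5 and CXCL8, the CC chemokines CCL2 and CCL20, and the interleukin-1 (IL1) family cytokines IL1A, IL1B and IL18. They were chosen by symbol from a table of 63816 gene entries, without use of their measured values, and each symbol was matched to its entry with the highest mean level. Their RNA levels were measured in 8 samples labelled as Caco-2, a line established from a human colorectal adenocarcinoma that the study describes as lacking Siglec-XII, although most intestinal markers were at or near 0 in these samples. In 4 samples the cells carried pcDNA3.1 as an empty vector and in 4 the same plasmid with full-length SIGLEC12, the gene of Siglec-XII, a sialic acid-binding-type receptor that has lost sialic acid binding in humans. Both groups had been transfected with linearized plasmid and kept under G418 selection, and the labels name no cytokine or other stimulus. Stable clones were selected, and 1 account of the series gives fewer cultures than samples while another speaks of technical replicate libraries. Whether the 4 samples of a group came from separate cultures is therefore not known, p-values measure only the spread between these samples, and an effect of Siglec-XII cannot be told apart from a difference between the selected populations.

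Chemokines are small secreted proteins that direct the movement of leukocytes. Those with the motif ELR before the CXC cysteines, to which all 5 CXC members belong, act on CXCR1, CXCR2 or both on neutrophils. CCL2 draws monocytes through CCR2, and CCL20 draws dendritic cells and lymphocytes through CCR6. IL1A and IL1B act through IL1R1 and MYD88 on NF-kappaB, which turns on the CXC chemokine genes, and IL1B and IL18 are made as precursors that caspase 1 cuts in the inflammasome. IL18 differs from the rest in that resting intestinal epithelium makes its precursor, whereas the others are known mainly as genes induced by infection, cytokines or injury.

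Of the 10 genes, 2 (CCL2 and IL18) reached 1 transcript per 1e+06 transcripts (TPM) in every sample, and the other 8 did so in no more than 1 sample each. CXCL5 and IL1B were listed at 0 in all 8 samples. Neither CCL2 nor IL18 differed between cells with Siglec-XII and cells with the empty vector beyond the spread between samples. The number of genes with an adjusted p under 0.05 was 0 of the 2 tested, where 0.648% of all 15590 tested entries passed. At an unadjusted p of 0.05 or less the number was also 0, where 16.5% of the tested entries passed, and 0 of the 2 had groups that did not overlap, where 10.8% of the entries were so separated. Tests were made with limma on log2(TPM + 1) over entries of at least 1 TPM in at least 4 samples, with Benjamini-Hochberg adjustment over all of these, and with 2 genes a share near the background cannot be told from a share of 0. In bulk RNA, fewer expressing cells and less RNA per cell cannot be told apart. At an unadjusted p of 0.05 or less together with a 2-fold change, limits which the study states, 0 of the 2 passed, against 0.603% of the entries.

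**Figure D1:**
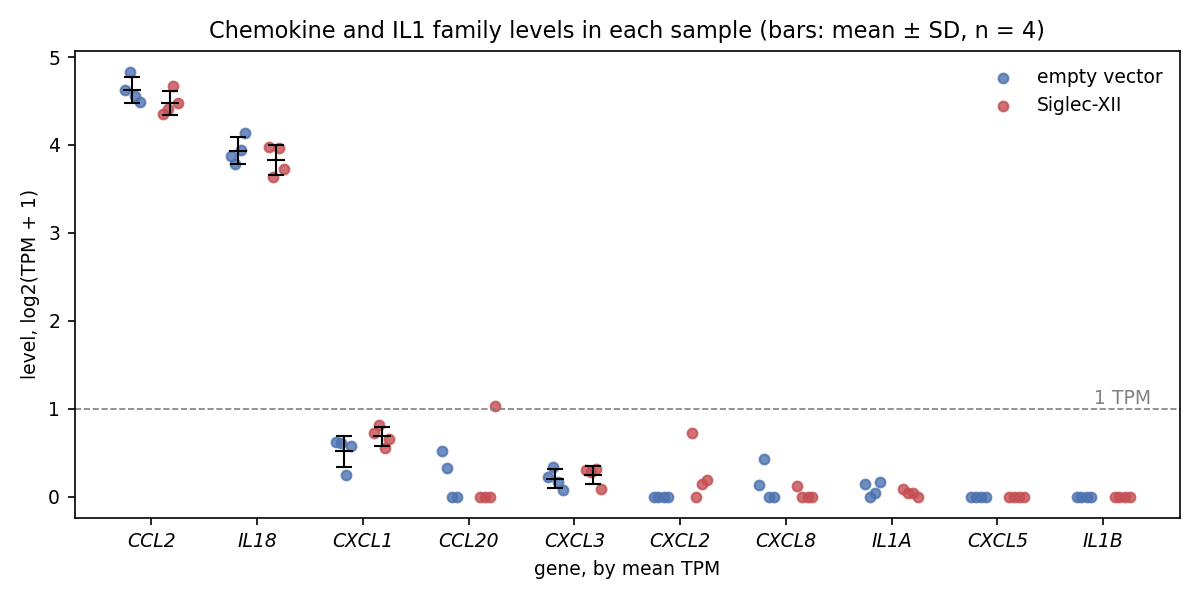
Level of each of the 10 genes as log2(TPM + 1) in every sample (points, 4 a group, blue for the empty vector and red for Siglec-XII), with genes ordered by mean TPM, the dashed line at 1 TPM, and black bars for the mean ± SD of a group where a gene was above 0 in all 8 samples. CCL2 and IL18 stand well above 1 TPM with overlapping groups, and of all other points 1, for CCL20 at 1.04 TPM, lies above the line.

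The promoter sequences of these ligands are shown first for a core of the NF-kappaB site, because genes that share it are set side by side below. RefSeq promoters on GRCh38.p14, from 250 bases before to 50 bases after the start, were at hand for 8 of the 10 genes, not for CCL2 and IL18. The letters GGAATTTCC, a core of the site bound by NF-kappaB, were sought on both strands. The promoters of all 5 CXC genes held them, as did 0.461% of 35116 promoters of the same length. These letters are an exact string and not every form of the site. The 5 genes are related, so their matches are not independent, and enrichment was not tested. The 30 bases around each match follow, 5′ to 3′ on the strand of the gene, with the core in capitals.
CXCL8 (chr4:73740468-73740497, plus strand): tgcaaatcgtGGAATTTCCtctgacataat
CXCL1 (chr4:73869305-73869334, plus strand): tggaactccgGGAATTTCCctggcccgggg
CXCL5 (chr4:73998748-73998777, minus strand): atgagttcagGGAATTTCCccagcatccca
CXCL3 (chr4:74038748-74038777, minus strand): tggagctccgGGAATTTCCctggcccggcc
CXCL2 (chr4:74099253-74099282, minus strand): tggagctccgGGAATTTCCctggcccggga

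Counted from the start of transcription, with -1 as the base just before it, the core began at position -91 in CXCL8, -90 in CXCL5, -78 in CXCL1 and CXCL3, and -77 in CXCL2. CXCL1, CXCL2 and CXCL3 also share most of the bases on both sides of it. The AP-1 letters TGANTCA, read on both strands, were present in the promoters of CXCL8 and IL1A and in 7.71% of all promoters. The letters TATAAA, which position RNA polymerase at many inducible genes, were present in those of CXCL8, IL1A and CCL20 and in 11.5% of all. These letters began at -31 in CXCL8 and -29 in CCL20, but at -239 in IL1A, far from the start. No core stood in the windows of CCL20, IL1A and IL1B, which says only that these letters were not there. In CXCL8 the AP-1 match lay upstream of the NF-kappaB core without touching it, and in CCL20 the TATAAA letters stood close to the start. Both are given below with the match in capitals. For CCL20, the words core element mean the TATAAA letters and not the NF-kappaB core.
CXCL8 AP-1 (chr4:73740421-73740450, plus strand): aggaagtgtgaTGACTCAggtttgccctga
CCL20 core element (chr2:227813801-227813830, plus strand): cccaatatttgcTATAAAtagggccatccc

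Although they share the core, the 5 CXC genes were together at 0.313 to 1.61 TPM in a sample. All 5 lie on chromosome 4 and encode neutrophil attractants that act on CXCR1, CXCR2 or both. CXCL1 (ENSG00000163739, GRCh37 chr4:74735110-74737025) was the highest of them and above 0 in every sample. Its level was 0.534, 0.525, 0.186 and 0.492 TPM with the empty vector and 0.651, 0.753, 0.46 and 0.579 TPM with Siglec-XII. The third sample with the empty vector was the lowest, and the groups overlapped. The group means were 0.434 ± 0.167 and 0.611 ± 0.123 TPM (SD, n = 4), a difference of 0.17 on the log2(TPM + 1) scale, with an exact two-sided permutation p of 0.143. With 4 samples against 4 there are 70 labellings, and 0.0286 is the smallest p that this test can give.

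CXCL3 (ENSG00000163734, GRCh37 chr4:74902306-74904524) was measured at 0.164, 0.262, 0.127 and 0.056 TPM with the empty vector and at 0.232, 0.218, 0.236 and 0.0637 TPM with Siglec-XII. Each group held 1 low sample, the fourth, and the groups overlapped, with an exact permutation p of 0.6 at n = 4 each. CXCL2 (ENSG00000081041, GRCh37 chr4:74962757-74964913) was listed at 0 in all samples with the empty vector and at 0.646, 0, 0.102 and 0.144 TPM with Siglec-XII. It was thus above 0 in 3 samples, all with Siglec-XII, and since the other Siglec-XII sample was also listed at 0 the groups overlapped, with an exact permutation p of 0.143. No fold change is given against a group listed at 0.

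CXCL1, CXCL2 and CXCL3 are near-identical copies in part. Of the 31-base words of the transcript that names its entry, CXCL1 shared 10.5% with other genes of the 10, most with CXCL2. CXCL2 shared 11.7%, most with CXCL3, and CXCL3 shared 9.57%, most with CXCL2. Reads of these stretches may have been divided among the 3 genes, so their single values are uncertain. The other 7 genes shared no such words with other genes of the 10. Sharing with genes outside the 10, or through other transcripts of a gene, was not examined.

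CXCL8 (ENSG00000169429, GRCh37 chr4:74606236-74609433), interleukin-8, was above 0 in 3 samples. It stood at 0.0936, 0.343, 0 and 0 TPM with the empty vector and at 0.085, 0, 0 and 0 TPM with Siglec-XII, with an exact permutation p of 0.429. The highest sample carried the empty vector, and both groups held samples listed at 0. CXCL5 (ENSG00000163735, GRCh37 chr4:74861359-74864394), the epithelial member of these attractants, was listed at 0 in all 8 samples.

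CCL2 (ENSG00000108691, GRCh37 chr17:32582293-32584227, plus strand), the monocyte attractant, was the highest of the 10 genes, with a mean of 22.6 TPM over the 8 samples and rank 5960 among all entries by mean TPM. With the empty vector it was measured at 23.7, 27.5, 22.5 and 21.5 TPM. With Siglec-XII it was measured at 19.3, 20.2, 24.5 and 21.4 TPM. The highest sample carried the empty vector and the lowest carried Siglec-XII, yet the third sample with Siglec-XII exceeded 3 of the 4 with the empty vector. The means were 23.8 ± 2.61 and 21.4 ± 2.24 TPM (SD, n = 4).

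The log2 fold change of CCL2, Siglec-XII minus empty vector, was -0.15 (SE 0.09, 95% interval -0.36 to 0.06), with an unadjusted limma p of 0.145 and an adjusted p of 0.46. As a ratio of (TPM + 1) this was 0.901, with an interval from 0.778 to 1.04, so a 2-fold change in either direction lay outside it. The exact permutation p was 0.2. Without the third Siglec-XII sample the log2 fold change was -0.21 with an unadjusted limma p of 0.0443 and an adjusted p of 0.325, and under the 18 alternatives as a whole the adjusted p ran from 0.325 to 0.712. The entry of CCL2 is named by a transcript annotated as a retained intron, 1919 bases long, while the columns sum to 1e+06 TPM, so the value stands for the gene's transcripts together and not for spliced CCL2 mRNA alone. The entries of CXCL1 and ACKR2 are likewise named by transcripts with no defined coding sequence.

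CCL20 (ENSG00000115009, GRCh37 chr2:228670455-228682280) draws CCR6-bearing cells to mucosal epithelium. It was listed at 0.434, 0.247, 0 and 0 TPM with the empty vector and at 0, 0, 0 and 1.04 TPM with Siglec-XII. The fourth Siglec-XII sample was the highest of all and the rest of its group was listed at 0. The exact permutation p was 1.0, and the difference of 0.05 on the log2 scale had no stable sign: it was -0.21 without that sample, -0.02 without the third or without the fourth sample with the empty vector, and -0.18 at a pseudocount of 0.1.

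IL18 (ENSG00000150782, GRCh37 chr11:112013976-112034819, minus strand), the IL1 family cytokine that induces interferon gamma in lymphocytes, had a mean of 13.8 TPM and rank 7773 among all entries. With the empty vector it stood at 13.6, 12.8, 14.3 and 16.6 TPM, and with Siglec-XII at 14.7, 11.5, 14.7 and 12.3 TPM. The highest sample carried the empty vector and the lowest carried Siglec-XII, and the groups overlapped over most of their range. The means were 14.3 ± 1.66 and 13.3 ± 1.67 TPM (SD, n = 4). The log2 fold change was -0.10 (SE 0.11, 95% interval -0.34 to 0.14), with a limma adjusted p of 0.67 and an exact permutation p of 0.4. The ratio of (TPM + 1) was 0.931, with an interval from 0.789 to 1.1.

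IL1A (ENSG00000115008, GRCh37 chr2:113531502-113542070), the form of IL1 that is active without inflammasome cleavage, was above 0 in 6 samples. It stood at 0.101, 0, 0.0292 and 0.129 TPM with the empty vector and at 0.0668, 0.0253, 0.0272 and 0 TPM with Siglec-XII, with an exact permutation p of 0.286. All of these values are near 0 and the groups overlapped. IL1B (ENSG00000125538, GRCh37 chr2:113587328-113594393), the main secreted form of IL1, was listed at 0 in all 8 samples.

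In order of mean TPM the genes ran CCL2, IL18, CXCL1, CCL20, CXCL3, CXCL2, CXCL8, IL1A, and then CXCL5 and IL1B at 0. CCL2 stood above IL18 in all 8 samples, with a mean difference in level of 0.67 on the log2(TPM + 1) scale, and the ranges of the pair did not overlap. IL18 stood above CXCL1 in all 8 samples, by 3.28 on that scale. From CXCL1 down, each neighbour in the order overlapped with the next. Genes further apart did not always overlap, since the lowest level of CXCL1, 0.186 TPM, was above the highest of IL1A, 0.129 TPM. Over the samples CCL2 and IL18 did not vary together, with a Pearson correlation of -0.04 over 8 libraries.

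The tested entries whose levels were most like those of CCL2 over the 8 libraries were OR7E101P (r = 0.95), SH3BGR (r = 0.95) and FGF7P5 (r = 0.93), given as a description. These libraries share the same cells and total scale, and 11 of the 15590 tested entries had a correlation over 0.9.

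The other ligands of the same families were as sparse. Of 11 other CXC chemokines, 2 were tested and 9 stayed under 1 TPM in every sample, among them 3 listed at 0 throughout. The exceptions were CXCL16, a membrane-bound ligand and scavenger receptor, at 44.9 ± 5.61 TPM with the empty vector and 48.0 ± 1.79 TPM with Siglec-XII (SD, n = 4), and CXCL12, the ligand of CXCR4, at 1.45 ± 0.225 and 1.92 ± 0.381 TPM. Their log2 fold changes were 0.10 and 0.25, and the limma adjusted p-values were 0.572 and 0.419. Of 18 other CC, CX3C and XC chemokines, 1 was tested and 16 stayed under 1 TPM throughout. That gene was CCL28, a mucosal chemokine, at 1.86 ± 0.372 and 2.03 ± 0.387 TPM, with an adjusted p of 0.82. CCL5, an attractant of T cells and monocytes named after its values were seen, was not tested by limma, at 0.0907, 0.0453, 0.0271 and 0.107 TPM with the empty vector and 0.472, 0.395, 0.715 and 0.37 TPM with Siglec-XII. CCL5 has 2 entries, and these values are those of the entry with the higher mean. All 4 samples with Siglec-XII lay above all 4 with the empty vector, with a difference of 0.47 on the log2(TPM + 1) scale. The exact permutation p was 0.0286, the smallest that 4 samples a group allow and not adjusted for the number of genes. Of the 36 related genes that were above 0 but below the filter, 2 were separated in this way, CCL5 and the kinase gene IRAK2, beside 1.87% of such entries as a whole. All 6 further IL1 family ligands, IL33 and the IL36 cytokines among them, stayed under 1 TPM in every sample.

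Genes that receive these ligands were mostly at or near 0. Of 10 receptor genes, 2 were tested and 7 stayed under 1 TPM in every sample. IL1R1, the receptor of IL1A and IL1B, stood at 1.89 ± 0.316 TPM with the empty vector and 1.79 ± 0.299 TPM with Siglec-XII, and its partner IL1RAP at 2.22 ± 0.554 and 1.96 ± 0.871 TPM. The adjusted p-values were 0.887 and 0.776. Among the untested receptors, here named after their values were seen, CXCR2 ran from 0.157 to 1.11 TPM, CCR2 from 0.0643 to 0.5 TPM, and CXCR1 and CCR6 did not exceed 0.0694 and 0.0512 TPM. IL18R1, the receptor of the expressed cytokine IL18, reached 0.317 TPM at most.

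Inhibitors of the 2 families were better represented. Of 7 such genes 4 were tested, 2 higher and 2 lower with Siglec-XII, and none had an unadjusted p of 0.05 or less. SIGIRR, which restrains IL1 and IL18 receptor signals in epithelium, was the highest at 68.0 ± 6.07 TPM with the empty vector and 62.9 ± 5.82 TPM with Siglec-XII. ACKR2, a scavenger of CC chemokines including CCL2, stood at 38.7 ± 4.33 and 40.4 ± 1.58 TPM. Their log2 fold changes were -0.11 and 0.06, and the adjusted p-values were 0.538 and 0.716. The lowest level of ACKR2, 35.4 TPM, was above the highest of CCL2, 27.5 TPM. IL18BP, the soluble antagonist of IL18, named after its values were seen, stood at 5.20 ± 0.654 and 5.08 ± 0.434 TPM.

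**Figure D2:**
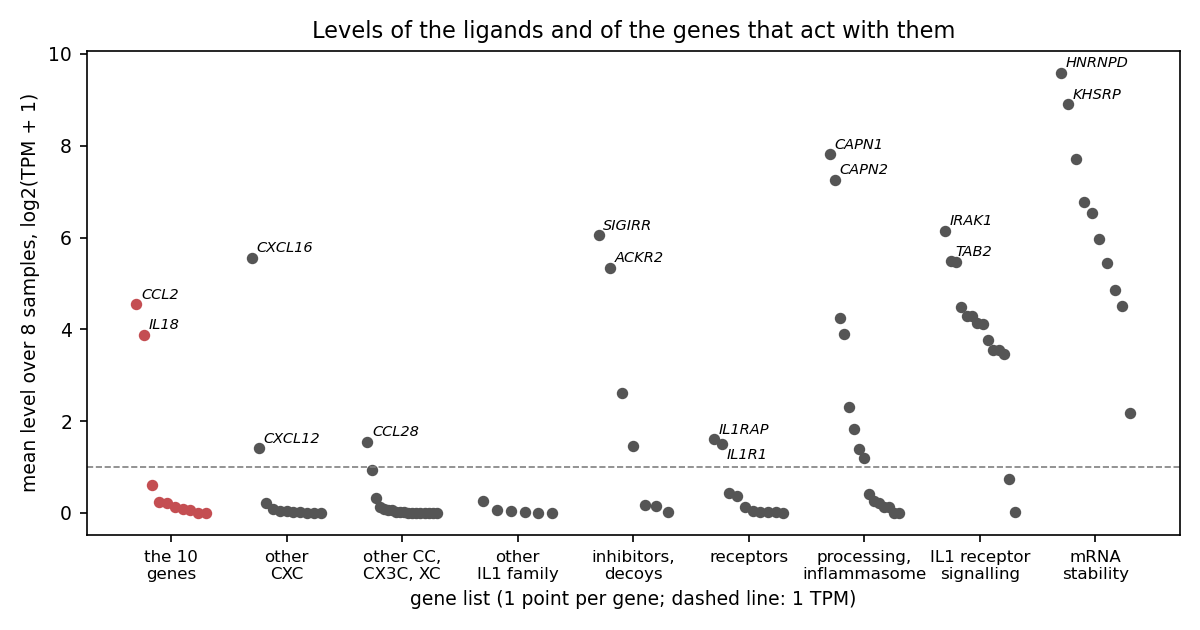
Mean level over the 8 samples, log2(TPM + 1), of each gene (1 point) in the list of 10 genes (red) and in 8 lists of related genes (grey), with the dashed line at 1 TPM and up to 2 of the highest genes of a list named. The ligand and receptor lists lie mostly below the line, while the lists of IL1 receptor signalling and of mRNA stability lie mostly above it.

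The machinery that matures IL1 family cytokines was present in part. Of 15 genes for processing and the inflammasome, 8 were tested and 2 were listed at 0 throughout. Those were CASP1, which cuts the precursors of IL1B and IL18, and CASP5, and they are named after their values were seen. The highest were the calpains CAPN1, at 214 ± 11.9 TPM with the empty vector and 234 ± 21.8 TPM with Siglec-XII, and CAPN2, at 145 ± 16.2 and 162 ± 8.98 TPM. Calpain cuts the precursor of IL1A. The adjusted p-values were 0.402 and 0.336, and 3 of the 8 tested genes were higher and 5 lower with Siglec-XII. The 8 libraries in which IL18 stood at 11.5 to 16.6 TPM were thus all listed at 0 for CASP1. Other caspases of the list, also named after their values were seen, were above 0: CASP8 had a mean of 18.0 TPM and CASP4 of 1.34 TPM. Whether the precursor of IL18 was cut was not tested.

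Genes that carry the signal from the IL1 and IL18 receptors were expressed more widely than the receptors. Of 14 such genes 12 were tested, against 2 of 10 receptors, with 8 higher and 4 lower with Siglec-XII, and 0 had an adjusted p under 0.05. The unadjusted p was 0.05 or less for 3 of the 12, all higher and all without overlap between groups, beside 16.5% and 10.8% of all tested entries. IRAK1, a kinase bound to the receptor complex, was the highest at 64.9 ± 5.37 and 76.1 ± 3.82 TPM, with a log2 fold change of 0.23 and an adjusted p of 0.149. TAB2, an adaptor of the kinase TAK1, came next at 42.4 ± 0.666 and 45.2 ± 2.67 TPM, with an adjusted p of 0.425.

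TOLLIP, an inhibitor of IRAK1, stood at 35.8, 42.0, 38.6 and 36.2 TPM with the empty vector and at 44.8, 46.7, 53.4 and 51.8 TPM with Siglec-XII. Every sample with Siglec-XII lay above every sample with the empty vector. The log2 fold change was 0.36 (95% interval 0.19 to 0.53), with an unadjusted limma p of 0.000869 and an adjusted p of 0.0838. MYD88, the shared adaptor of the receptors, stood at 15.2 ± 1.0 and 17.4 ± 0.798 TPM, with a log2 fold change of 0.19, an unadjusted limma p of 0.0202 and an adjusted p of 0.221. The unadjusted p of MYD88 was over 0.05 under 6 of the 18 alternatives, at most 0.105 with quantile normalization. The median log2 fold change of the 12 genes was 0.08, beside 0.07 over all tested entries.

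**Figure D3:**
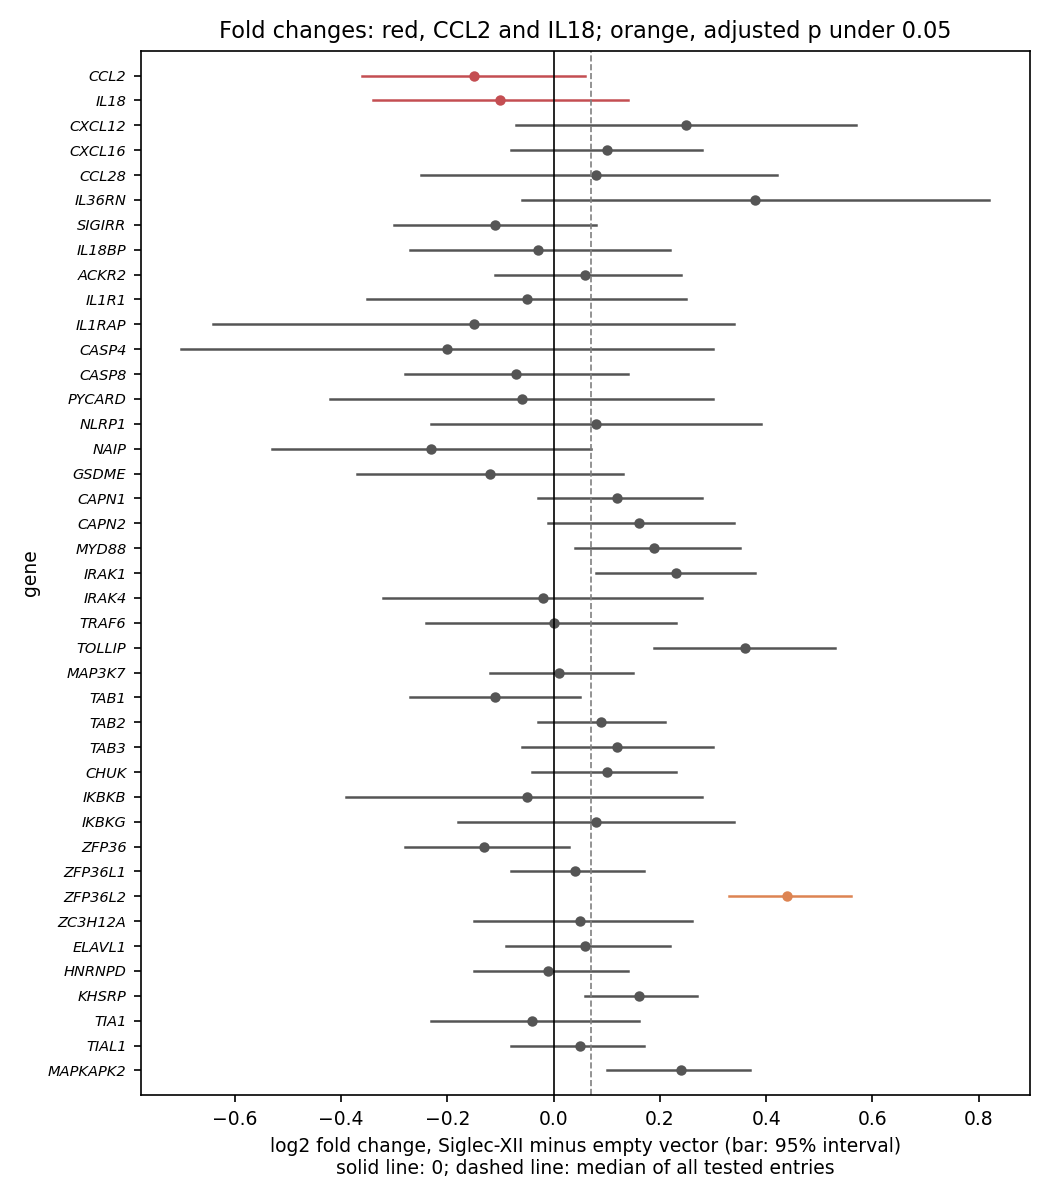
Log2 fold change, Siglec-XII minus empty vector, with its 95% interval from limma for CCL2 and IL18 (red) and the 39 tested genes of the related lists (grey, orange where the adjusted p was under 0.05). The dashed line marks the median of all tested entries, 0.07, both red intervals span 0, and the orange point, ZFP36L2 at 0.44, is the 1 gene that passed.

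Messenger RNAs of CXC chemokines, CCL2 and IL1 carry AU-rich elements, and proteins that bind these set how long the messages last. All 10 genes of the list for cytokine mRNA stability were tested, 7 higher and 3 lower with Siglec-XII, with a median log2 fold change of 0.05. ZFP36L2, which speeds the decay of such messages, rose. Of the 91 genes in the related lists 39 were tested, and it was the only 1 with an adjusted p under 0.05. Of all tested entries 0.648% passed. ZFP36L2 stood at 23.3, 25.0, 23.9 and 22.6 TPM with the empty vector and at 32.7, 33.7, 31.9 and 32.1 TPM with Siglec-XII. The groups were far apart compared with the spread within them, at 23.7 ± 0.983 and 32.6 ± 0.818 TPM (SD, n = 4). The log2 fold change was 0.44 (95% interval 0.33 to 0.56), with a limma adjusted p of 0.00463.

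KHSRP, another decay factor, stood at 452 ± 23.7 and 506 ± 15.1 TPM, with a log2 fold change of 0.16 and an adjusted p of 0.152, and its unadjusted p was 0.0566 once a trend with transcript length was removed. MAPKAPK2, the kinase that inactivates ZFP36 and so stabilizes these messages, stood at 39.2 ± 2.96 and 46.3 ± 0.879 TPM, with a log2 fold change of 0.24 and an adjusted p of 0.112. Neither had groups that overlapped, the unadjusted limma p-values were 0.00695 and 0.00282, and neither passed the adjusted threshold. HNRNPD, the most abundant of the list, stood at 772 ± 45.7 and 769 ± 57.8 TPM, with an adjusted p of 0.975 and a sign that changed with the processing. Over all related lists 39 of 91 genes were tested, of which 23 were higher and 16 lower. An unadjusted p of 0.05 or less was found for 6, all higher with Siglec-XII, beside the 16.5% of tested entries that passed this limit in either direction.

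The labels were checked on SIGLEC12 and on cell type markers. SIGLEC12 stood at 0.0795 ± 0.0342 TPM with the empty vector and 1670 ± 71.3 TPM with Siglec-XII, with a log2 fold change of 10.59 and a limma adjusted p of 2.6e-14. The intestinal identity of the line was not borne out by most of its markers. Of 14 genes of intestinal epithelium, 10 stayed under 1 TPM in every sample and KRT20, FABP1, SI and PHGR1 were listed at 0. The tested genes were CDX1, which ran from 128 to 165 TPM, and CDX2, which ran from 34.0 to 48.8 TPM. VIL1 ran from 0.308 to 1.3 TPM. The list summed to 163 to 186 TPM with the empty vector and 190 to 216 TPM with Siglec-XII.

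All 6 general epithelial markers were expressed, and they summed to 8360 to 9350 TPM with the empty vector and 9950 to 10400 TPM with Siglec-XII. Of 16 trophoblast genes 12 were tested, with sums of 2410 to 2470 and 2290 to 2330 TPM. XAGE2 ran from 710 to 851 TPM over the 8 samples, GATA3 from 331 to 479, HSD3B1 from 316 to 370 and PAGE4 from 233 to 347 TPM. They were the highest of the list by mean. KRT7, VGLL1 and TFAP2C came next, with means of 247, 177 and 161 TPM, and CYP19A1 had a mean of 3.59 TPM. CGB3, CGB5, CGB8 and GCM1 stayed under 1 TPM in every sample. CGA had a mean of 0.785 TPM, ERVFRD-1 and PSG1 of 1.22 TPM and ERVW-1 of 1.4 TPM. The high trophoblast genes and the low intestinal markers go against the tissue named in the labels. CDX1, CDX2 and the low trophoblast genes are not part of that pattern, and the identity of the line was not tested. The sums of these 3 lists did not overlap between the groups, as was the case for ZFP36L2 and the 5 other genes above, and their part in those values was not tested. A sum is carried by its most abundant genes. Taken singly, 0 of 2 tested intestinal genes, 3 of 6 epithelial and 1 of 12 trophoblast genes had groups without overlap. The share over all tested entries was 10.8%. Leukocytes, a usual source of these ligands, left few marks: of 10 markers, 3 were tested, which were CD14 at a mean of 1.36 TPM, CD68 at 1.25 TPM and CSF1R at 1.96 TPM, while TYROBP and MS4A1 were listed at 0, PTPRC did not exceed 0.076 TPM, and the sum was 3.78 to 5.09 TPM with the empty vector and 3.96 to 6.58 TPM with Siglec-XII. Fibroblasts also make CCL2, and 5 of 7 of their markers were tested, with THY1 listed at 0 and sums of 70.7 to 86.8 and 83.2 to 89.1 TPM. Of 5 endothelial markers 1 was tested, with sums of 5.33 to 11.6 and 6.39 to 7.25 TPM.

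**Figure D4:**
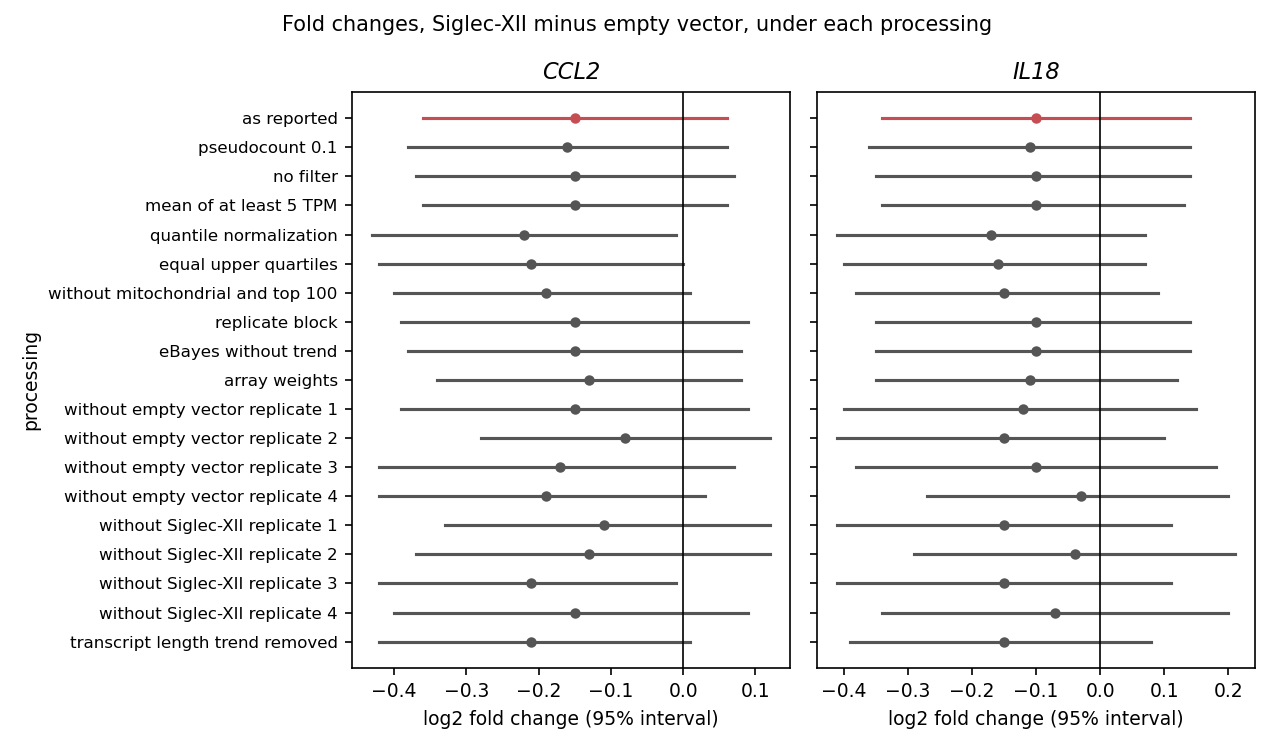
Log2 fold change of CCL2 and IL18 with its 95% interval as reported (red) and under each of 18 alternatives (grey). All points lie below 0, from -0.22 to -0.08 for CCL2 and from -0.17 to -0.03 for IL18, and nearly all intervals reach 0, the exceptions being those of CCL2 under quantile normalization, with equal upper quartiles and without the third Siglec-XII sample.

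The directions of CCL2 and IL18 held under every alternative, as the plot of fold changes by processing shows, and no adjusted p passed. The highest level among the 8 genes left out of the test was 1.04 TPM, and their exact permutation p-values, where a gene was above 0, ran from 0.143 to 1.0. None of the 6 that were above 0 had groups without overlap, where 1.87% of the 23978 entries above 0 but below the filter had. These p-values do not show that the levels were the same.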

How the data were processed

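Samples were grouped by their labels into 4 with the empty vector and 4 with SIGLEC12. Per the labels, libraries were stranded and rRNA-depleted, with paired reads of 100 bases, about 25000000 to 40000000 to a sample, whereas the methods of the study name an mRNA kit. The authors quantified the reads with kallisto (0.45.0 in the submitters' processing notes) on hg19 and deposited log2(TPM + 1) per gene entry. Each column sums to 1e+06 TPM, so the reads behind a value are unknown, no count test or counting interval was possible, and values are relative to the rest of a sample's RNA. Of 63816 entries, 39568 were above 0 in some sample, and 15513 to 15934 reached 1 TPM in each.

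Entries of at least 1 TPM in at least 4 samples (15590) were compared with limma 3.58.1 (R 4.3.3), using a mean-variance trend, two-sided, with Benjamini-Hochberg adjustment over all of them, and checked on simulated data. Fold changes are on the log2(TPM + 1) scale and understate the change of low genes. Single genes were also compared by an exact permutation test. The genes, gene lists, tests and thresholds were chosen with earlier results of these data known. Text names the 10 genes, SIGLEC12, marker genes, in each related list the 2 tested genes of highest level and those with an unadjusted p of 0.05 or less, and the 3 entries most correlated with CCL2. Positions of genes are GRCh37, matched by gene ID to GENCODE (86.9% of entries), and those beside the promoter sequences are GRCh38.p14. Same-numbered samples of the groups did not deviate together (correlations 0.04, 0.03, -0.07 and 0.06). The 18 alternatives used a pseudocount of 0.1, every entry above 0, entries with a mean of 5 TPM or more, quantile or upper-quartile scaling, omission of mitochondrially encoded and the 100 most abundant entries, a replicate block, no trend, array weights, each sample left out, and, added after the data were seen, removal of a trend with transcript length. Figures used matplotlib 3.10.9 under Python 3.11.15.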

Additional observations from a re-analysis of the deposited data

Results flagged for a closer look

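Within the groups of 4, single samples stood apart for 4 genes, by a gap to the nearest sample that, as a share of the group's range, was over Dixon's 95% critical value. CXCL1 was low in the third sample with the empty vector, at 0.25 on the log2(TPM + 1) scale, with a gap of 0.89 of the range. CXCL3 was low in the fourth Siglec-XII sample, at 0.09, with a gap of 0.903. CXCL8 at 0.12 in the first and CCL20 at 1.03 in the fourth Siglec-XII sample each stood alone above samples listed at 0. In all, 4 of the 17 groups examined had such a sample. Chance gives about 1 in 20 for untied values, a rate that does not apply to the groups of CXCL8 and CCL20, in which any single value above 0 stands apart from 3 samples listed at 0. All lie at or under about 1 TPM, where the error of a value is not known.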

How the results depend on the processing

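No gene of the 10 had an adjusted p under 0.05 under any of the 18 alternatives. The number with an unadjusted p of 0.05 or less changed from 0 to 1, CCL2, under quantile normalization (log2 fold change -0.22, p 0.0400, limma), equal upper quartiles (-0.21, p 0.0477) and without the third Siglec-XII sample (-0.21, p 0.0443). Among the left-out samples it was 0 to 1. The number of all entries with an adjusted p under 0.05, 101 as reported, was 51 without a filter, 54 without the trend, 49 to 159 as samples were left out, and 69 with the replicate block. The number at 2-fold and an unadjusted p of 0.05 or less was 51, from 94, at a mean of at least 5 TPM. The related genes with an adjusted p under 0.05 were 1 to 2 as samples were left out, 2 without the second empty vector sample, where MAPKAPK2 also passed (limma adjusted p 0.0492). ZFP36L2 passed in all, at 0.36 to 0.47. With the replicate number as a block CCL2 had an adjusted p of 0.505 and IL18 of 0.661, and no call on the 10 genes changed. Signs turned for ACKR2 (-0.00, quantile), IL1R1 (-0.12 to 0.02, samples left out), HNRNPD (0.00 quantile, 0.02 array weights, -0.05 to 0.04 samples left out) and CCL20 (-0.18 at a pseudocount of 0.1, -0.21 to 0.15 samples left out); the cause was not tested. The median of all entries ran from 0.00 to 0.08.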

Other observations

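Among other inflammation genes that the study discusses, chosen after their levels were seen, IL6 stood above all 10 ligands in level. IL6, a cytokine that NF-kappaB induces along with CXCL8 and IL1B, stood at 145 ± 11.5 TPM with the empty vector and 175 ± 15.2 TPM with Siglec-XII (SD, n = 4), in the same libraries in which IL1B was listed at 0 and CXCL8 did not exceed 0.343 TPM. Its log2 fold change was 0.27, with an unadjusted limma p of 0.00501 and an adjusted p of 0.138, and the groups overlapped. IL6ST, the signal-transducing receptor subunit for IL6, differed by 0.13 on the log2 scale (adjusted p = 0.528). NFKBIE, an inhibitor of NF-kappaB, stood at 11.4 ± 4.73 and 9.31 ± 1.56 TPM, with an adjusted p of 0.68.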
